A study of Mus musculus with 18 samples.

Results

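The genes described here are the nuclear-encoded subunits of the respiratory chain and ATP synthase in sorted mouse heart muscle cells. Members were taken by gene symbol: symbols beginning with Nduf, Uqcr or Atp5, the 4 genes Sdha to Sdhd, Cyc1, and the cytochrome oxidase symbols Cox4 to Cox8 without the paired isoforms Cox6a1, Cox6a2, Cox7a1, Cox7a2, Cox8a and Cox8b. The rule took 85 of the 12048 genes in the tables, 11927 of which could be given a symbol. Complex I contributed 44 members, complex II 4, complex III 9, complex IV 11 and complex V 17. The inhibitor Atpif1 and the small subunit Usmg5 stood in the tables under older symbols and were not taken by the rule. A further 16 symbols that fit the rule, most of them pseudogenes or isoforms such as Cox4i2, were not analysed here.

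The respiratory chain sits in the inner mitochondrial membrane. Complex I takes electrons from NADH and complex II takes them from succinate; complex III passes them to cytochrome c and complex IV hands them to oxygen, while the proton gradient built along the way drives ATP synthase, called complex V. Heart muscle depends on this pathway for most of its ATP. The subunits of the pathway come from the nuclear genome as well as from the small mitochondrial genome. Both sets of transcripts have to be made for complexes I, III, IV and V to assemble, while complex II is nuclear-encoded throughout.

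Cells came from hearts of Mlc2vcre:R26REYFP mice, in which a Cre driven by the ventricular myosin light chain gene turns on a yellow fluorescent reporter, so the marked cells are those with that promoter's history. All groups carried both alleles and no group received a treatment. Cells were sorted by nuclear number into mononucleated (MoNuc, 1 nucleus) and binucleated (BiNuc, 2 nuclei) cardiomyocytes at E18.5 (an embryonic day close to birth), P7 (postnatal day 7) and in the adult, with 3 libraries in each of the 6 groups and 18 in all. Whether the libraries of a group stem from different animals is not in the labels; the p-values reflect only their spread, which may be technical. Recovered counts summed to between 14833334 and 22690952 per library. All 8 cardiomyocyte markers checked were measured, and their summed level lay between 504400 and 593900 normalized counts at E18.5, between 643000 and 869900 at P7 and between 894600 and 957500 in the adult.

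E18.5 BiNuc replicate 1 stood apart from the rest. Members took 8.69% of its counts, against 5.14% to 5.63% in the 5 other E18.5 libraries, and it also had the lowest total count. Fitted differences and counts of calls that rest on E18.5 BiNuc are therefore given with and without this library, except under the alternative scalings. Because the libraries share 1 estimate of the spread, leaving it out also changed the calls in comparisons that do not contain it.

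Promoters of a few members are printed to show the sequence upstream of genes that carry a binding motif for NRF-1, a factor known for its sites in respiratory chain genes, next to genes that had none of the motifs searched. Of the 85 members, 68 had an entry in the RefSeq promoter table (GRCm38.p6). Each sequence is the 250 bases before the transcription start, 5′ to 3′ on the gene's own strand. Capitals mark a motif on either strand: CGCATGCG for NRF-1, and TGACCTT, the reverse complement of AAGGTCA, for the oestrogen-related receptors (ERR). Ndufa8 lies at chr2:36049339-36049588 (minus strand), Atp5k at chr5:108434400-108434649 (minus strand), Atp5l at chr9:44920743-44920992 (minus strand), Uqcrc1 at chr9:108936398-108936647 (plus strand) and Sdha at chr13:74350241-74350490 (minus strand).
Ndufa8: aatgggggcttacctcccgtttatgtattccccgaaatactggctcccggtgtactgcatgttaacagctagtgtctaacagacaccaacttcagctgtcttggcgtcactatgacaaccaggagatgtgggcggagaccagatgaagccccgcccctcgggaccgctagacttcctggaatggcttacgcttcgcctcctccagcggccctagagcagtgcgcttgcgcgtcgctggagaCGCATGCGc
Atp5k: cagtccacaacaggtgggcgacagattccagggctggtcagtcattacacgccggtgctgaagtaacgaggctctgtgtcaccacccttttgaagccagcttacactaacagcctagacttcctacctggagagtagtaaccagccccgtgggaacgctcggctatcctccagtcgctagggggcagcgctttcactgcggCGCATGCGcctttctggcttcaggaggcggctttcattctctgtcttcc
Atp5l: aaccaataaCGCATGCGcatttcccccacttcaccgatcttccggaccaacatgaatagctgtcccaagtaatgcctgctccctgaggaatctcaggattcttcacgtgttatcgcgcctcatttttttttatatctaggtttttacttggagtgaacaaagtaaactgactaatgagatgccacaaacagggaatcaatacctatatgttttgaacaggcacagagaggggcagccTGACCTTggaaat
Uqcrc1: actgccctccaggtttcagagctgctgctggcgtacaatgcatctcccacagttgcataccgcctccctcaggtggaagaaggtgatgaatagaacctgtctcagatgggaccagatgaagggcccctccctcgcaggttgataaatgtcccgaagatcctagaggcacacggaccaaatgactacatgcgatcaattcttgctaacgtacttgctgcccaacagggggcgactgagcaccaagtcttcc
Sdha: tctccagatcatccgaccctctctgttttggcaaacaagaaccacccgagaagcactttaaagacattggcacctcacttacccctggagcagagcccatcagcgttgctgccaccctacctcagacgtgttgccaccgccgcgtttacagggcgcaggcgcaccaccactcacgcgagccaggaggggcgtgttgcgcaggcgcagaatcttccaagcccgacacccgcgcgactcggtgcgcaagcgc

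Among the 68 members with a promoter, 7 (10.3%) held CGCATGCG: Ndufa8, Ndufa11, Ndufaf4, Atp5g2, Atp5j, Atp5k and Atp5l. The same letters stood in 3.75% of 9376 genes of the tables with a promoter and in 1.75% of all 27025 genes with a promoter entry. AAGGTCA, the ERR motif, was in 5 members (7.35%), against 3.37% and 4.70% in the same sets. CCGGAAGT, an ETS motif of the kind bound by GABP, was in 3 members (4.41%), against 6.94% and 3.23%, and AAGATGG, a YY1 motif, was in 1 member (1.47%), against 5.12% and 5.18%. Both strands were searched, and no motif contains another. Atp5l and Atp5j held more than 1 of the 4 motifs, and 14 members held any of them. A match of letters is a description of these windows, and the series holds no binding data.

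Respiratory chain transcripts were higher in adult than in E18.5 cardiomyocytes of both nuclear classes on the scale the authors deposited. In MoNuc cells, 44 of the 85 members rose and 1 fell between E18.5 and adult (limma, adjusted p under 0.05), with a median log2 difference of 0.60 and 81 members above 0. Of all genes tested in that comparison, 26.2% rose and 27.7% fell. In BiNuc cells, 21 members rose and 2 fell with a median of 0.37, against 28.3% and 29.4% of all genes. Without E18.5 BiNuc replicate 1, 80 members rose and 1 fell in BiNuc cells, with a median of 0.77, against 30.6% and 32.4% of all genes. In MoNuc cells, 78 members then rose and 1 fell, against 31.8% and 33.0% of all genes.

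The rise was shared with other abundant genes and depends on the scaling. The median member ranked at percentile 97.2 to 97.5 of all genes in the E18.5 MoNuc libraries and at 97.2 to 97.8 in the adult MoNuc libraries. The 500 most abundant genes, 64 of which are members, took 37.8% to 39.4% of the counts in E18.5 MoNuc libraries and 47.1% to 49.1% in adult MoNuc libraries. The other 436 of them had a median log2 difference of 0.58 in MoNuc and 0.78 in BiNuc cells from E18.5 to adult (0.73 in BiNuc without E18.5 BiNuc replicate 1). The members' medians given above were close to these in MoNuc cells and in BiNuc cells without that library. With all libraries the members' BiNuc median was lower. Under quantile normalization, which gives every library the same distribution, the members' median was 0.03 in MoNuc cells (2 higher and 7 lower, against 25.0% and 25.9% of all genes) and −0.13 in BiNuc cells (3 higher and 13 lower, against 28.3% and 26.7%). When libraries were scaled to total counts, the member medians were 0.21 and −0.04, while the median of all genes moved from −0.01 to −0.40 and from −0.02 to −0.43. The other 436 abundant genes had medians of 0.006 in MoNuc and 0.165 in BiNuc cells under quantile normalization, and 0.184 and 0.367 under total counts. The direction of the members' change is therefore stated on the deposited scale throughout. The BiNuc values under both scalings include E18.5 BiNuc replicate 1, and neither scaling was fitted without that library. In these bulk libraries fewer cells of a type and less RNA per cell cannot be told apart.

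Markers of other cell types also moved with age in MoNuc cells. From E18.5 to adult, 7 of 8 endothelial markers rose, from a summed 243.7 to 566.5 normalized counts to 1312 to 1452. All 6 measured leukocyte markers rose, from 45.6 to 60.8 to 248.4 to 332.9, with Laptm5, C1qb and C1qc at 0 recovered counts in each E18.5 MoNuc library. Of the 5 atrial markers 4 fell (10260 to 14960 against 145.5 to 864.7), and of the 5 measured erythroid markers 4 fell (739.8 to 1293 against 3.16 to 215.2). In BiNuc cells 0 endothelial and 0 leukocyte markers rose and 1 of each fell, while all 5 atrial and all 5 erythroid markers fell, counts that were the same without E18.5 BiNuc replicate 1. At E18.5 the BiNuc sums were already 960.2 to 1740 for endothelial and 276.4 to 749.2 for leukocyte markers. In adult BiNuc libraries they were 1527 to 1828 and 193.0 to 217.4. These sums stand against 894600 or more for the cardiomyocyte markers in the adult, and their part in the members' change was not tested.

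**Figure D1:**
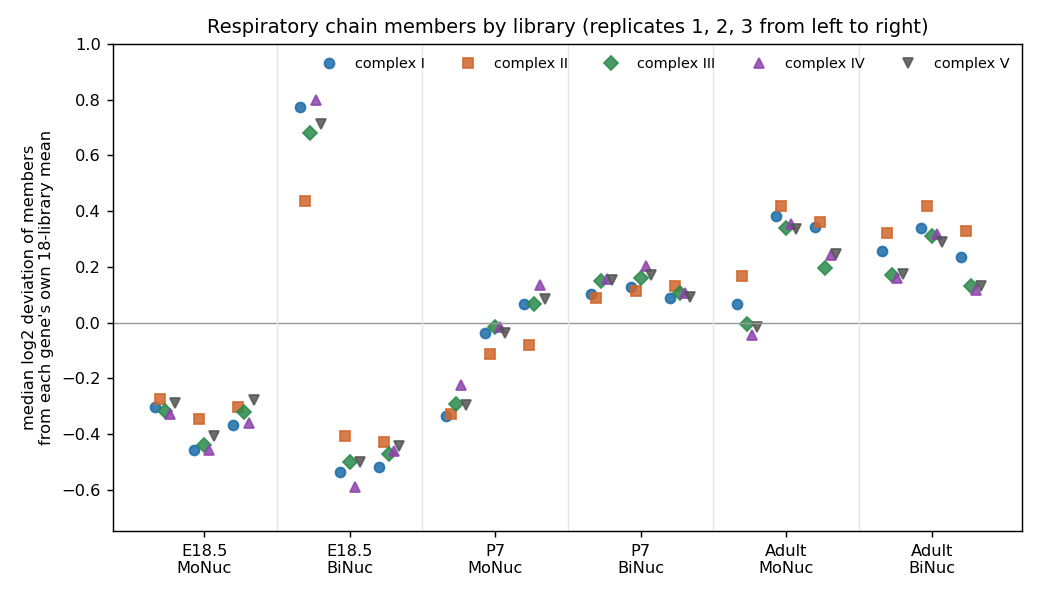
Median log2 deviation of the members of each complex from each gene's own mean over the 18 libraries (y axis), for the 3 libraries of each group (x axis, replicates 1 to 3 from left to right), on the deposited scale. The E18.5 libraries lie below 0 apart from BiNuc replicate 1, whose 85 members have a median of 0.76, and the P7 BiNuc and adult libraries lie above 0, apart from complexes III, IV and V in adult MoNuc replicate 1. Quantile normalization with all libraries, E18.5 BiNuc replicate 1 included, took the adult minus E18.5 median to 0.03 in MoNuc and −0.13 in BiNuc cells.

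The median member deviation was lowest at E18.5 and highest in the adult in most libraries, but single libraries of the ages overlapped. It was −0.30, −0.44 and −0.33 in the E18.5 MoNuc libraries, and 0.76, −0.52 and −0.47 in the E18.5 BiNuc libraries. At P7 it was −0.31, −0.03 and 0.07 in MoNuc, and 0.14, 0.14 and 0.10 in BiNuc. The adult values were 0.01, 0.36 and 0.30 in MoNuc, and 0.22, 0.32 and 0.19 in BiNuc. P7 MoNuc replicate 1 lay at the level of the E18.5 MoNuc libraries, and adult MoNuc replicate 1 lay below the other adult libraries and within the range of P7. The members' share of counts was 5.49% to 6.71% at P7 and 5.71% to 6.78% in the adult.

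Complex I had the highest median among the complexes in MoNuc cells. From E18.5 to adult its median log2 difference was 0.67 with 27 of 44 members higher, followed by complex II at 0.65 (3 of 4), complex IV at 0.55 (3 of 11 higher, 1 lower), complex III at 0.54 (4 of 9) and complex V at 0.53 (7 of 17). Differences between the complexes were not tested. In BiNuc cells the medians were 0.42, 0.51, 0.39, 0.26 and 0.27 for complexes I to V, with 11, 3, 3, 0 and 4 members higher. Of all genes, 26.2% rose in MoNuc and 28.3% in BiNuc cells. Complex IV in MoNuc cells and complexes I, IV and V in BiNuc cells stood near or below those shares. Without E18.5 BiNuc replicate 1 the BiNuc medians were 0.84, 0.80, 0.73, 0.69 and 0.66, with 41, 4, 9, 9 and 17 members higher, against 30.6% of all genes. The 0 of complex IV in BiNuc cells therefore rested on 1 library: 3 of its 11 members had an unadjusted p under 0.05 in the limma fit with that library and 11 without it.

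**Figure D2:**
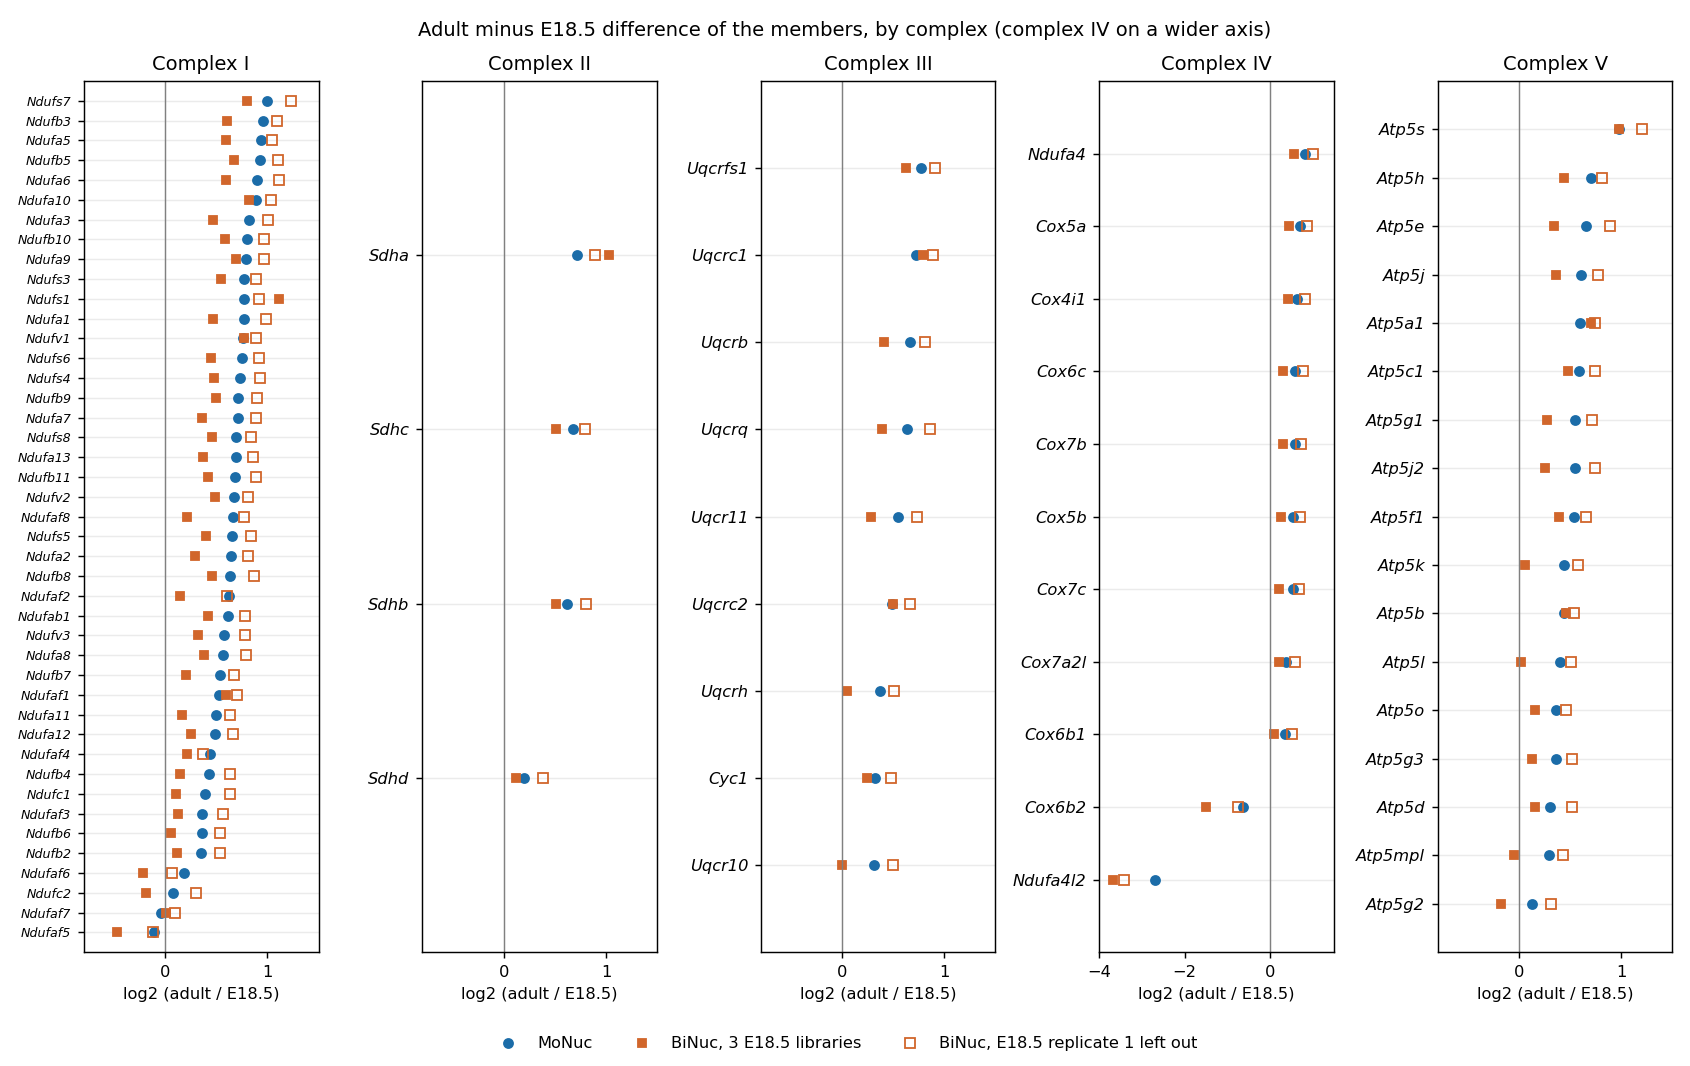
Log2 difference between adult and E18.5 (x axis) of 84 of the 85 members (y axis), by complex, for MoNuc cells (circles), BiNuc cells with 3 E18.5 libraries (filled squares) and BiNuc cells without E18.5 replicate 1 (open squares), on the deposited scale. Most points lie to the right of 0, Ndufa4l2 and Cox6b2 lie to the left, and the open squares lie to the right of the filled ones for most members, Sdha and Ndufs1 excepted. With all libraries, E18.5 BiNuc replicate 1 included, quantile normalization took the medians to 0.03 in MoNuc and −0.13 in BiNuc cells.

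Within complex I, the 7 core subunits that carry the flavin and iron-sulphur centres had a higher median difference than the assembly factors. All 7 core redox subunits were called higher in adult MoNuc cells, with a median of 0.77, and the call of Ndufs8 ended without adult MoNuc replicate 2 (0.63, adjusted p = 0.0528). Of the 29 accessory subunits, which surround the core without carrying electrons, 18 were called higher with a median of 0.68 (28 without E18.5 BiNuc replicate 1). Of the 8 assembly factors Ndufaf1 to Ndufaf8, which help build the complex and are not part of it, 2 were called higher with a median of 0.40 (5 without that library). In BiNuc cells 6 of the 7 core redox subunits were called higher with a median of 0.77, against 4 of 29 accessory subunits (0.42) and 1 of 8 assembly factors (0.14). All 7 core redox subunits (0.89), all 29 accessory subunits (0.87) and 5 of 8 assembly factors (0.47) were called higher in BiNuc cells without E18.5 BiNuc replicate 1. The BiNuc calls of Ndufv2, Ndufs3 and Ndufs7 ended without E18.5 BiNuc replicate 2 or 3 (adjusted p 0.0673 to 0.186), and those of Ndufv2 and Ndufs3 ended in 13 and 5 of the fits with 1 library left out. The difference between these roles was not tested. Of all genes, 26.2% rose in MoNuc and 28.3% in BiNuc cells, or 31.8% and 30.6% without E18.5 BiNuc replicate 1. With all libraries, the counts of assembly factors in both classes and of accessory subunits in BiNuc cells lay near or below those shares.

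Ndufs7, which carries the last iron-sulphur centre before the quinone, had 9088, 8322 and 8717 normalized counts in E18.5 MoNuc libraries and 15080, 19760 and 17620 in adult MoNuc libraries. In E18.5 BiNuc libraries it had 18560, 7444 and 7658, and in adult BiNuc libraries 16970, 19510 and 16730. The MoNuc groups did not overlap, while E18.5 BiNuc replicate 1 lay inside the adult BiNuc range. The adult minus E18.5 difference was 1.00 ± 0.25 (log2, SE, adjusted p = 0.00313) in MoNuc and 0.80 (adjusted p = 0.0125) in BiNuc cells, or 1.23 without that library. The BiNuc call ended without E18.5 BiNuc replicate 2 or 3 (0.57 and 0.59, adjusted p = 0.0695 and 0.0673).

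Ndufs1, the largest core subunit, had 21450, 19510 and 20470 normalized counts in E18.5 MoNuc and 33050, 35380 and 36120 in adult MoNuc libraries. Its E18.5 BiNuc values were 13090, 19770 and 19410 and its adult BiNuc values 37320, 36990 and 36860. Here E18.5 BiNuc replicate 1 was the lowest library of all, the opposite of its place for Ndufs7. The difference was 0.77 (adjusted p = 0.000118) in MoNuc and 1.11 (adjusted p = 2.05e-06) in BiNuc cells, or 0.92 without that library.

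Ndufv1, which binds NADH, had 19900, 18710 and 19700 normalized counts in E18.5 MoNuc libraries and 23470, 18440 and 18600 in E18.5 BiNuc libraries. At P7 it had 21160, 24670 and 25950 in MoNuc and 26660, 26750 and 29710 in BiNuc libraries, and in the adult 30620, 35160 and 33160 in MoNuc and 33580, 34480 and 34730 in BiNuc libraries. All 6 adult libraries lay above the 12 libraries of the younger ages. Ndufv1 rose by 0.76 in MoNuc and 0.77 in BiNuc cells from E18.5 to adult (adjusted p = 2.69e-05 and 1.98e-05), or 0.89 in BiNuc cells without E18.5 BiNuc replicate 1.

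Among the accessory subunits, Ndufb3 had 3384, 3016 and 3204 normalized counts in E18.5 MoNuc libraries and 5274, 6976 and 6496 in adult MoNuc libraries, groups that did not overlap. It rose by 0.96 (adjusted p = 0.00737) in MoNuc cells, and Ndufa5 and Ndufb5 by 0.94 and 0.92. Ndufa10 was called in both classes, at 0.88 in MoNuc and 0.82 in BiNuc cells (1.03 without E18.5 BiNuc replicate 1). Ndufc2 showed the smallest difference among the accessory subunits in MoNuc cells, at 0.07 (adjusted p = 0.845). The assembly factor Ndufaf1 was called higher in both classes (0.53 and 0.59), whereas Ndufaf5 had −0.11 (adjusted p = 0.690) in MoNuc and −0.47 (adjusted p = 0.0753) in BiNuc cells and Ndufaf7 −0.04 and 0.01. The BiNuc values of these 3 were 0.70, −0.12 and 0.09 without E18.5 BiNuc replicate 1, with Ndufaf1 alone called. Per kilobase of transcript, the median level of the assembly factors was 920.3 normalized counts in E18.5 MoNuc cells, against 7694 for the core redox subunits.

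Complex II, succinate dehydrogenase, is encoded in the nucleus throughout and also serves the citric acid cycle. Its flavoprotein Sdha had 38720, 36760 and 38640 normalized counts in E18.5 MoNuc libraries and 26820, 36220 and 35000 in E18.5 BiNuc libraries. At P7 it had 40130, 45690 and 43040 in MoNuc and 51750, 51480 and 54870 in BiNuc libraries, and in the adult 62870, 62020 and 62240 in MoNuc and 65960, 66640 and 65840 in BiNuc libraries. The ages did not overlap within either class. The adult minus E18.5 difference was 0.71 ± 0.11 (adjusted p = 4.21e-05) in MoNuc and 1.03 ± 0.11 (adjusted p = 6.78e-07) in BiNuc cells, or 0.89 without E18.5 BiNuc replicate 1.

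The iron-sulphur subunit Sdhb and the anchor Sdhc rose by 0.62 and 0.68 in MoNuc cells and by 0.51 each in BiNuc cells, all past the threshold (0.81 and 0.80 in BiNuc without E18.5 BiNuc replicate 1). The BiNuc calls of both ended without E18.5 BiNuc replicate 2 or 3, at adjusted p of 0.119 and 0.142 for Sdhb and 0.0986 and 0.0951 for Sdhc, and also without adult BiNuc replicate 2 (0.0782 and 0.056) and, for Sdhb, adult BiNuc replicate 1 (0.0558). Sdhd, the other membrane anchor, had 21700, 19480 and 19950 normalized counts in E18.5 MoNuc and 21350, 25090 and 23870 in adult MoNuc libraries, which overlapped. Its difference was 0.20 (adjusted p = 0.316) in MoNuc and 0.12 (adjusted p = 0.544) in BiNuc cells, where it reached 0.38 (adjusted p = 0.00199) without E18.5 BiNuc replicate 1. Its highest level outside E18.5 BiNuc replicate 1 was at P7, with 27610, 27430 and 28010 in the BiNuc libraries, above the 24280 to 24520 of the adult BiNuc libraries.

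**Figure D3:**
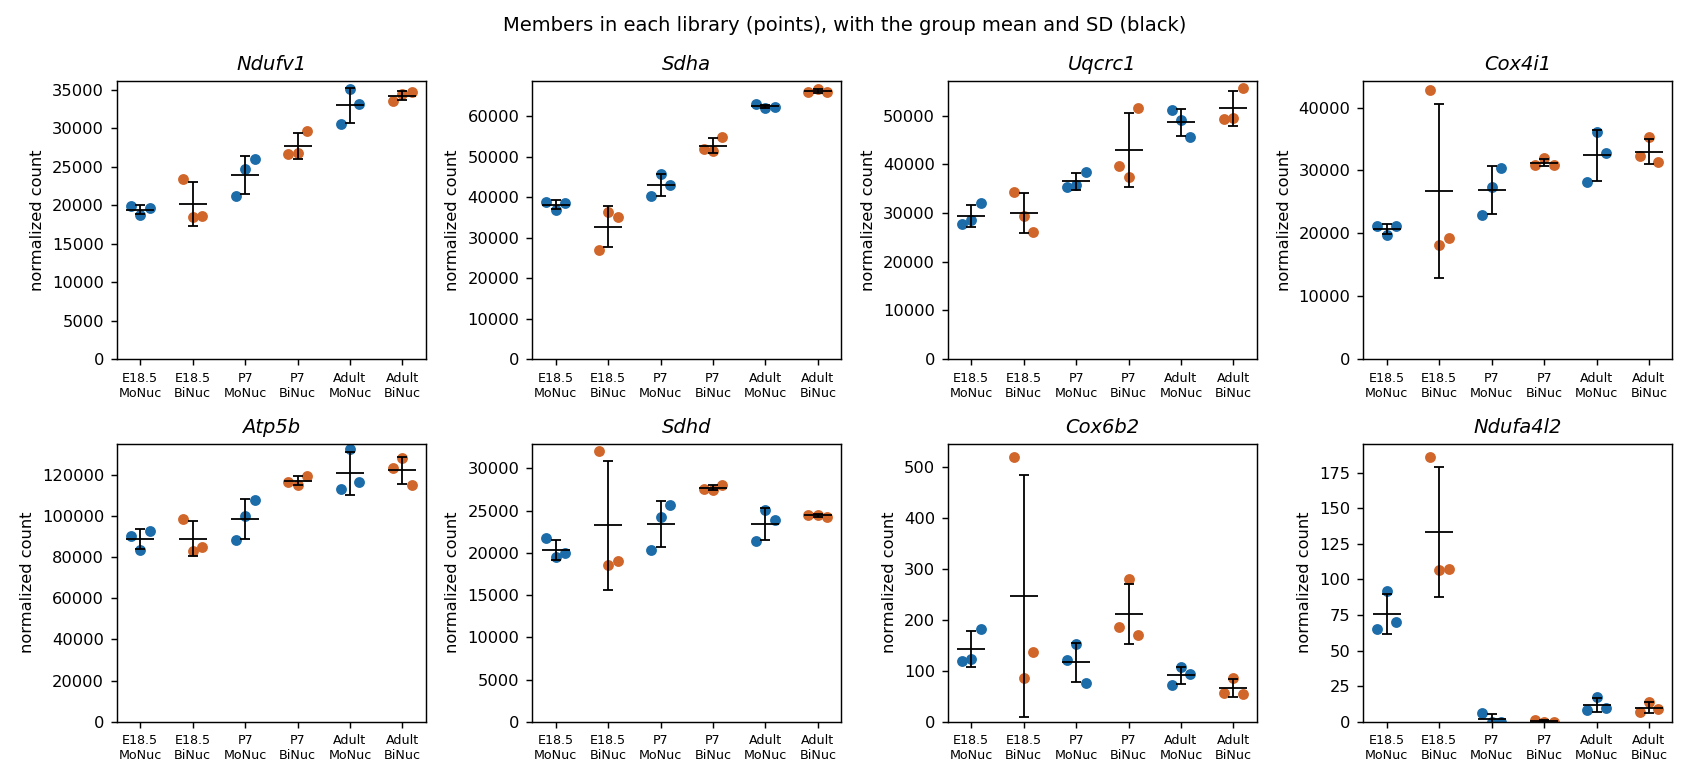
Normalized counts (y axis, from 0) of 8 members in each library (blue points MoNuc, orange points BiNuc), with the group mean and SD of 3 libraries in black, for the 6 groups (x axis). The group means of Ndufv1, Sdha, Uqcrc1 and Atp5b are highest in the adult groups. P7 BiNuc libraries reach into the adult range for Uqcrc1 and Atp5b, and the P7 BiNuc mean of Atp5b lies close to its adult means. Sdhd is highest in P7 BiNuc cells once E18.5 BiNuc replicate 1 is set aside, Ndufa4l2 is highest at E18.5, and Cox6b2 is highest in E18.5 BiNuc replicate 1 (521.1) and next in P7 BiNuc replicate 2 (280.1). Quantile normalization with all libraries turned the adult minus E18.5 differences of Ndufv1, Sdha (MoNuc), Uqcrc1 and Atp5b to values below 0.

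In complex III, the core protein Uqcrc1 had 27720, 28560 and 31980 normalized counts in E18.5 MoNuc libraries and 51190, 49060 and 45620 in adult MoNuc libraries. The BiNuc values were 34360, 29440 and 26150 at E18.5 and 49310, 49480 and 55590 in the adult, again without overlap. Uqcrc1 rose by 0.73 (adjusted p = 0.000191) in MoNuc and 0.79 (adjusted p = 7.84e-05) in BiNuc cells, and the Rieske iron-sulphur protein Uqcrfs1 by 0.77 and 0.63. Their BiNuc values were 0.89 and 0.91 without E18.5 BiNuc replicate 1. Cyc1, the cytochrome c1 haem subunit, did not pass the threshold, with 0.32 (adjusted p = 0.0951) and 0.24 (adjusted p = 0.202), and reached 0.48 in BiNuc cells without E18.5 BiNuc replicate 1. Of the 5 small subunits, Uqcrb alone was called in MoNuc cells with all libraries, and all 5 were called without that library.

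In complex IV, the regulatory subunit Cox4i1 had 21190, 19700 and 21140 normalized counts in E18.5 MoNuc libraries and 28200, 36150 and 32780 in adult MoNuc libraries, which did not overlap. E18.5 BiNuc replicate 1 held 42720, above every adult BiNuc library (32310, 35280 and 31380), while replicates 2 and 3 held 18180 and 19260. Cox4i1 rose by 0.64 (adjusted p = 0.0265) in MoNuc cells. In BiNuc cells its difference was 0.42 (adjusted p = 0.128) with that library and 0.82 (adjusted p = 9.87e-06) without it. Ndufa4, named for complex I but found in complex IV, rose by 0.83 (adjusted p = 0.012) in MoNuc cells, and the matrix-side subunit Cox5a by 0.71. The MoNuc calls of Cox4i1 and Cox5a ended when some single libraries were left out: Cox4i1 without any E18.5 MoNuc library or without adult MoNuc replicate 2 or 3 (0.56 to 0.66, adjusted p 0.0523 to 0.0912), and Cox5a without E18.5 MoNuc replicate 2 or adult MoNuc replicate 2 or 3 (adjusted p 0.0602 to 0.0718).

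A pair of complex IV members went the other way. Ndufa4l2, a hypoxia-responsive relative of Ndufa4, had 79, 125 and 81 recovered counts in E18.5 MoNuc libraries and 152, 141 and 143 in E18.5 BiNuc libraries. At P7 it had 7, 0 and 0 in MoNuc and 1, 0 and 0 in BiNuc libraries, and in the adult 8, 13 and 8 and 6, 11 and 8. Its level at E18.5 was 35.0 times that at P7 in MoNuc cells (95% interval of counting error 16.8 to 87.9, from 285 against 7 counts) and 350 times in BiNuc cells (62.5 to 13900, from 436 against 1 count), or 298 times without E18.5 BiNuc replicate 1 (53.1 to 11800). Ndufa4l2 was called lower in the adult than at E18.5, at −2.68 (adjusted p = 0.0103) in MoNuc and −3.68 (adjusted p = 0.000979) in BiNuc cells (−3.41 without E18.5 BiNuc replicate 1), and higher in the adult than at P7. It was the 1 member with fewer than 10 counts in some library.

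Cox6b2, the isoform of Cox6b known from testis, had 119.8, 124.2 and 183 normalized counts in E18.5 MoNuc libraries and 72.77, 107.6 and 92.94 in adult MoNuc libraries. Its E18.5 BiNuc values were 521.1, 85.34 and 137, and its adult BiNuc values 55.63, 85.8 and 55.18. At P7 it had 121, 153.1 and 77.14 in MoNuc and 186.2, 280.1 and 170.0 in BiNuc libraries. E18.5 BiNuc replicate 1 was far above every other library. The difference was −0.63 (adjusted p = 0.294) in MoNuc and −1.50 (adjusted p = 0.0147) in BiNuc cells, and the second was no longer called without that library (−0.75, adjusted p = 0.0722). Between P7 and adult BiNuc cells, which do not include that library, Cox6b2 fell by 1.68 (adjusted p = 0.012), or had −1.46 (adjusted p = 0.0563) without P7 BiNuc replicate 2.

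In complex V, the catalytic F1 subunits were among the most abundant members. Atp5b, the catalytic beta subunit, had 90270, 83450 and 92890 normalized counts in E18.5 MoNuc libraries and 113000, 132500 and 116600 in adult MoNuc libraries. Per kilobase it was the highest member of its complex, at 46380 in E18.5 MoNuc and 63010 in adult MoNuc cells, against 27030 and 42320 for Cox4i1, the highest of complex IV. Its difference of 0.44 (adjusted p = 0.00395) in MoNuc and 0.46 (adjusted p = 0.00254) in BiNuc cells was below that of the alpha subunit Atp5a1, at 0.60 and 0.70 (adjusted p = 0.000124 and 2.1e-05). Atp5s, which encodes coupling factor B and had 800.9 to 1098 normalized counts in E18.5 MoNuc libraries, showed the largest rise of the complex, at 0.97 in both classes (adjusted p = 0.000178 and 0.000164), to 1683, 1890 and 1894 in adult MoNuc libraries. The BiNuc differences of Atp5b, Atp5a1 and Atp5s were 0.54, 0.74 and 1.20 without E18.5 BiNuc replicate 1.

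The 3 genes Atp5g1, Atp5g2 and Atp5g3 encode the same mature c-ring protein with different import sequences. None was called between E18.5 and adult (MoNuc 0.55, 0.12 and 0.36, with 0 unadjusted p under 0.05 in the limma fit), and 2 of them in MoNuc and all 3 in BiNuc cells were called without E18.5 BiNuc replicate 1 (BiNuc 0.27, −0.18 and 0.12 with that library, 0.71, 0.31 and 0.52 without it). Atp5g1 made up 39.4% ± 0.81 (SD, n = 3) of their summed counts in E18.5 MoNuc cells, Atp5g2 3.15% ± 0.20 and Atp5g3 57.4% ± 0.68. The 4 small membrane subunits had a median of 0.42 in MoNuc cells with 0 called, and all 4 were called without that library. The peripheral stalk, which holds the head still against the rotor, had 3 of 4 members called higher with a median of 0.57.

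The 2 intervals between the ages were compared for each class. From E18.5 to P7, 0 members rose in MoNuc cells and 1 fell (median 0.27, 80 above 0), against 10.7% and 7.84% of all genes; 7 members had an unadjusted p under 0.05. In BiNuc cells 10 rose and 1 fell (median 0.24), against 18.2% and 17.7%. The 10 included the core redox subunits Ndufs1 (0.73) and Ndufv1 (0.47), the accessory Ndufa10 (0.50), Sdha (0.70), both complex III core proteins Uqcrc1 (0.51) and Uqcrc2 (0.38), and Atp5a1 (0.50), Atp5b (0.40) and Atp5s (0.51), and the 1 that fell was Ndufa4l2 in each class. The BiNuc values of the risen members named here lay between 0.48 (Atp5b) and 0.73 (Atp5s) without E18.5 BiNuc replicate 1. The BiNuc call of Atp5s ended without E18.5 BiNuc replicate 2 or 3 or any P7 BiNuc library (adjusted p 0.0551 to 0.146). Without E18.5 BiNuc replicate 1, 78 rose in BiNuc cells (median 0.63), against 21.7% of all genes, and 40 in MoNuc cells, against 17.8%. Quantile normalization with all libraries left 0 members higher and 1 lower in each class, with medians of 0.13 in MoNuc (10.6% of all genes called in each direction) and −0.003 in BiNuc cells (18.4% and 17.2%).

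From P7 to adult, 17 members rose and 0 fell in MoNuc cells (median 0.31, 80 above 0), against 19.1% and 22.3% of all genes. In BiNuc cells 6 rose and 1 fell (median 0.11, 63 above 0), against 17.3% and 19.7%. Of the core redox subunits, 5 of 7 were higher in MoNuc (median 0.56) and 3 of 7 in BiNuc cells (median 0.39), and of the accessory subunits 2 of 29 (0.34) and 0 of 29 (0.13). With E18.5 BiNuc replicate 1 left out of the fit, 7 and 6 core redox and 21 and 6 accessory subunits were called, and roles were not tested against each other. The 5 small subunits of complex III had medians of 0.15 and −0.04, and the 4 small membrane subunits of complex V 0.07 and −0.14, with 0 called in either class. Sdha was called in this interval in both classes, at 0.54 and 0.33, as were Ndufs1 at 0.56 and 0.39, Ndufv1 at 0.47 and 0.31 and Atp5s at 0.60 and 0.46. Ndufaf3, an assembly factor, was called in MoNuc cells at 0.66 (adjusted p = 0.0461), from 792.6, 981.6 and 1062 normalized counts at P7 to 1280, 1680 and 1520 in the adult; this call ended in 14 fits with 1 library left out (adjusted p up to 0.159). The BiNuc calls of Ndufs1, Ndufv1, Sdha and Atp5s in this interval ended in 6, 10, 5 and 14 fits with 1 library left out, most libraries of P7 BiNuc and adult BiNuc among them (adjusted p up to 0.0893, 0.12, 0.0796 and 0.127). The MoNuc calls of Atp5s, Ndufs7 and Uqcrc1 ended without P7 MoNuc replicate 1 (adjusted p = 0.0512, 0.0836 and 0.0527), that of Uqcrc1 also without P7 MoNuc replicate 2 (0.0555) or adult MoNuc replicate 1 (0.0639), and that of Ndufs7 without adult MoNuc replicate 2 (0.0698). Quantile normalization gave medians of −0.11 and −0.20, with 2 higher and 5 lower in MoNuc (against 19.3% and 19.4% of all genes) and 1 higher and 6 lower in BiNuc cells (against 15.9% and 17.6%). Without E18.5 BiNuc replicate 1 in the fit, 54 members rose in MoNuc and 23 in BiNuc cells, against 25.9% and 24.1% of all genes.

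Between the nuclear classes, no member passed the threshold at any age with all libraries. At E18.5, 0 members were called between BiNuc and MoNuc cells, against 0.805% of all genes, and 0 had an unadjusted p under 0.05 by limma (2 when voom weights were used). The median log2 difference, BiNuc minus MoNuc, was 0.27 with 78 members above 0. It was −0.16 with 4 above 0 without E18.5 BiNuc replicate 1, so the sign rested on that library. Markers of other cell types also differed at E18.5 with all libraries. In BiNuc cells 5 of 7 measured fibroblast, 4 of 8 endothelial and 5 of 6 measured leukocyte markers were called higher, and 0 atrial and 0 erythroid markers were called. Their part in this comparison was not tested. At P7, 0 members were called, against 2.12% of all genes, 4 had an unadjusted p under 0.05, and the median was 0.22 with 82 above 0. In the adult, 0 were called, against 0.0913% of all genes, 0 had an unadjusted p under 0.05, and the median was 0.02.

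At P7 the BiNuc libraries lay above all the MoNuc libraries for 36 of the 85 members and below all of them for 0, against 9.84% and 14.7% of all genes. Sdha was among them, with the P7 values given above, at 0.30 ± 0.11 (95% interval 0.06 to 0.53, adjusted p = 0.273). Ndufs1 had 21550, 25160 and 24470 normalized counts in MoNuc and 28540, 27240 and 29250 in BiNuc libraries at P7, at 0.26 (adjusted p = 0.569). With E18.5 BiNuc replicate 1 left out of the fit, Sdha (adjusted p = 0.00888) and Ndufs1 (adjusted p = 0.0368) were called at P7, 35 members had an unadjusted p under 0.05, and 0.822% of all genes were called higher. The other 436 of the 500 most abundant genes had a median of 0.18 at P7, and quantile normalization took the member median to 0.05. Cardiomyocyte markers were also higher in P7 BiNuc (769400 to 869900 summed) than in P7 MoNuc libraries (643000 to 683100), and 0 of the 8 were called. Of the 6 measured leukocyte markers Lyz2 was the 1 called lower (31 to 79 against 319 to 442 recovered counts, −2.83, adjusted p = 0.00116 by limma), while the other 5 had 0 to 9 recovered counts in every P7 library and the median of the 6 was 0.70. Of the 5 atrial markers 1 was called lower in P7 BiNuc, with sums of 897.6 to 2091 against 1663 to 3038. Their part in the result was not tested.

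**Figure D4:**
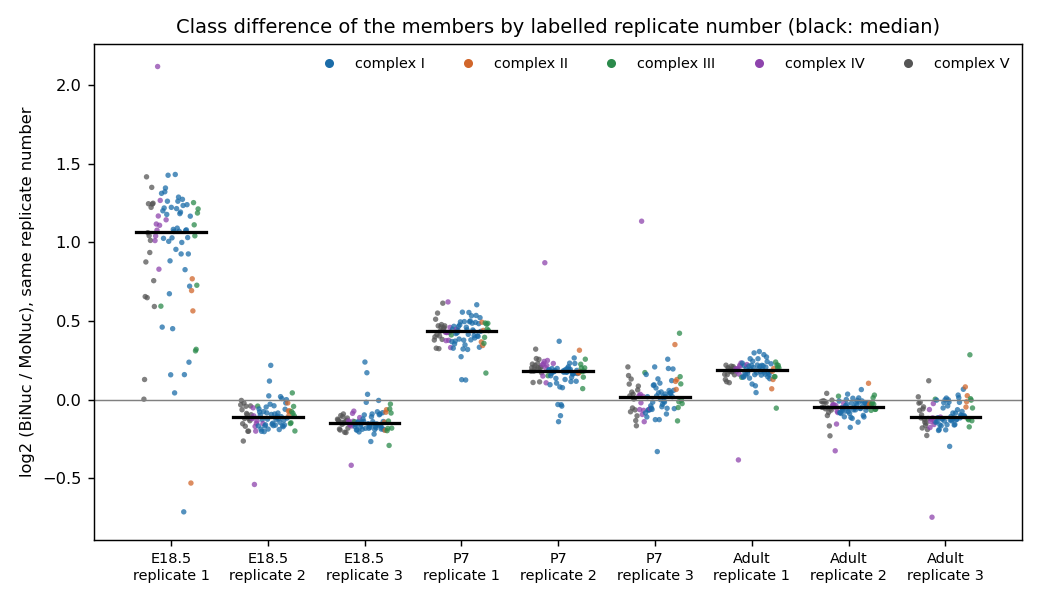
Log2 difference between the BiNuc and MoNuc libraries that share a replicate number (y axis) for each member except Ndufa4l2 (points, by complex), at each age and number (x axis). Black lines are medians of the members drawn. Over all 85 members the median was 1.07 for E18.5 replicate 1 and 0.43 for P7 replicate 1, while the other 7 medians lay between −0.14 and 0.19.

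Taken by replicate number, the class difference had medians of 1.07, −0.11 and −0.14 at E18.5, 0.43, 0.18 and 0.02 at P7 and 0.19, −0.05 and −0.11 in the adult. Replicate 1 gave the highest value at each age. At P7 the members above 0 numbered 84, 80 and 47 of 85, so the third pair showed little difference. Tests of whether the class difference changed between ages called 0 members, by limma, for each pair of ages (2.33%, 0.208% and 0.158% of all genes for P7 against E18.5, adult against P7 and adult against E18.5), with 2, 0 and 0 members at an unadjusted p under 0.05 and 3, 0 and 1 with voom weights. Without E18.5 BiNuc replicate 1, Sdha was called for P7 against E18.5, at 0.39 (adjusted p = 0.0223), against 1.05% of all genes called higher.

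The high member level of E18.5 BiNuc replicate 1 went with transcript length. Against the mean of replicates 2 and 3, the 85 members had a median log2 difference of 1.26 in this library, with 83 above 0. The 45 members with a transcript under 1000 bases had a median of 1.40, the 31 from 1000 to under 2000 bases 0.91, and the 9 of 2000 bases or more 0.64. Within the longest class Atp5g1 (4715 bases, 1.33), Ndufb2 (4371 bases, 1.26) and Ndufab1 (3479 bases, 1.08) lay above 0.91, and the others lay below it. Whether the annotated transcript used for the length was the one measured was not tested. Sdha (−0.41) and Ndufs1 (−0.58), both above 2000 bases, were the 2 members below 0, and Cox6b2 was the highest at 2.27. All genes showed the same order, with medians of 1.32, 0.56 and −0.43 in the same length classes. Spearman's rho between length and difference was −0.71 across the members and −0.47 across all genes, as a description across genes that share these libraries.

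**Figure D5:**
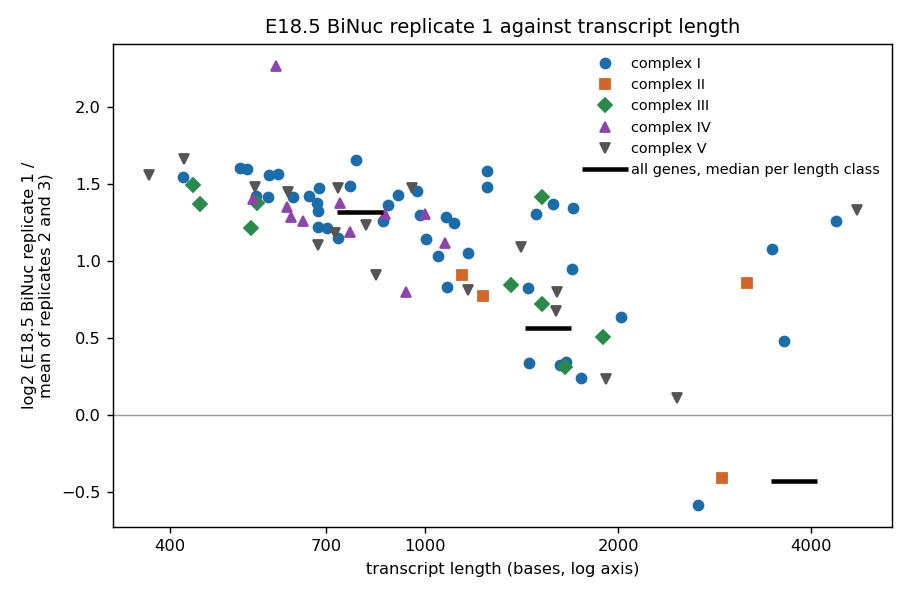
Log2 ratio of E18.5 BiNuc replicate 1 to the mean of replicates 2 and 3 (y axis) against transcript length in bases (x axis, log scale) for the 85 members by complex; black bars are medians of all genes in 3 length classes, drawn at the median length of each. Short members lie mostly between 1 and 1.6, and Ndufs1 and Sdha lie below 0.

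In the adult minus E18.5 comparison of MoNuc cells, which does not contain that library, the medians of the 3 length classes were 0.61, 0.58 and 0.61. In BiNuc cells they were 0.29, 0.46 and 0.51 with it and 0.77, 0.75 and 0.78 without it. The 7 measured fibroblast markers summed to 5788 normalized counts in E18.5 BiNuc replicate 1 and to 16120 and 16710 in replicates 2 and 3, against 907.1 to 1814 in E18.5 MoNuc and 363.6 to 888.6 in the P7 and adult libraries. All 7 were called lower in adult than in E18.5 BiNuc cells, with and without replicate 1, and in MoNuc cells 2 were called higher and 2 lower. Their part in the BiNuc comparisons was not tested.

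Other mitochondrial genes were set beside the members, on the deposited scale. Of the 11 measured mitochondrially encoded transcripts, which encode the remaining subunits of complexes I, III, IV and V, 11 rose from E18.5 to adult in each class, with medians of 1.74 in MoNuc and 1.54 in BiNuc cells (2.08 in BiNuc without E18.5 BiNuc replicate 1). Their share of counts went from 0.811% to 1.25% in the E18.5 MoNuc libraries to 2.01% to 2.66% in the adult MoNuc libraries. All 14 citric acid cycle genes rose in each class (medians 0.68 and 0.82, and 0.83 in BiNuc without that library). Of 37 measured assembly factors outside the rule, 18 rose in MoNuc and 16 in BiNuc cells and 0 fell (0.54 and 0.41), or 26 and 25 without that library (BiNuc median 0.69). Of 77 mitochondrial ribosomal proteins, which translate the mitochondrial transcripts, 16 rose and 4 fell in MoNuc and 14 rose and 6 fell in BiNuc cells (0.27 and 0.05). Without that library 41 of the 77 rose and 8 fell in MoNuc and 51 rose and 3 fell in BiNuc cells, where the median was 0.43. Of all genes, 26.2% rose and 27.7% fell in MoNuc and 28.3% and 29.4% in BiNuc cells with all libraries. Without that library the shares were 31.8% and 33.0% in MoNuc and 30.6% and 32.4% in BiNuc cells. The share of mitochondrial ribosomal proteins that rose lay below that of all genes with all libraries, and above it without that library.

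Among 20 regulators of mitochondrial biogenesis, 6 rose and 1 fell in MoNuc and 12 rose and 2 fell in BiNuc cells, or 11 and 1 and 12 and 3 without E18.5 BiNuc replicate 1. The 6 in MoNuc cells stood near the 26.2% of all genes that rose there, against 28.3% in BiNuc cells. Without that library the shares of all genes that rose were 31.8% and 30.6%. Esrra, an ERR that acts on respiratory chain genes, rose by 0.85 and 1.12 (BiNuc 1.13 without that library). Its coactivator Ppargc1a had 0.27 (adjusted p = 0.141) in MoNuc and rose by 0.53 in BiNuc cells, and was called in both classes without that library (BiNuc 0.31, adjusted p = 0.0092 and 0.0078). Nrf1, whose product binds the motif printed in capitals for Ndufa8, Atp5k and Atp5l, fell by 0.80 in MoNuc and by 0.70 in BiNuc cells (BiNuc −0.95 without that library). The 7 members with that motif had MoNuc differences of 0.12 to 0.61 with a median of 0.44, and the 54 members with a promoter and none of the 4 motifs −0.63 to 1.00 with a median of 0.62. In BiNuc cells the medians were 0.16 and 0.42, or 0.58 and 0.79 without that library. The 2 sets overlapped and were not tested against each other. Gabpa had 0.00 and 0.34 and Tfam, the mitochondrial DNA packaging factor, 0.25 and 0.22, none of them past the threshold. Without that library Tfam was called in both classes (BiNuc 0.40, adjusted p = 0.0301 and 0.0041), and Gabpa had −0.04 in BiNuc cells.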

How the data were processed

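RNA from sorted MoNuc and BiNuc cardiomyocytes was taken up in Trizol-LS and made into stranded mRNA libraries after SMARTer amplification, per the labels' protocols. STAR, limma and the mm9 build are named in the submitters' processing notes, without versions. Molecular identifiers are not mentioned, so intervals cover counting error only. The authors deposited 1 table per library with log2 values for 12048 genes; each value is the log2 of a count plus 0.5 multiplied by a library factor, and all counts recovered from it were whole to within 0.001. The depth was 14833334 to 22690952 counts per library.

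The deposited log2 values were fitted with limma 3.58.1 (R 4.3.3; Python 3.11.15, pandas 2.3.3 and SciPy 1.17.1 for summaries): 6 group means, 18 libraries, 12 residual degrees of freedom, an intensity trend, two-sided tests, and Benjamini-Hochberg adjustment over the 12048 genes within each of 12 comparisons. A gene was called at an adjusted p under 0.05, and "rose" or "fell" refers to such calls. Library names were matched to groups by title. Normalized counts are recovered counts put on the library factors' scale, divided by the factors' geometric mean. Lengths and per-kilobase levels use the longest principal transcript of the reference annotation. How reads shared by copies were counted is not stated in the labels or notes, so levels of members with processed pseudogenes are uncertain.

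The members and the lists of other genes were chosen with earlier results of these data known. The members named are the core redox and catalytic subunits, the c-ring genes, the extremes of each complex and up to 5 called members per direction and comparison; a member that this rule takes is not reported here, though it stays in the counts and medians. Alternatives were another offset (2 counts), the upper 75% of genes by mean, total-count, median-gene and quantile scaling, voom and array weights, the compared groups alone, a replicate block, and each library left out. Same-numbered MoNuc and BiNuc libraries correlated at 0.182 to 0.236 at P7 and 0.261 to 0.327 in the adult, over 0.1 in every pair, and at 0.0545 to 0.158 at E18.5; numbers of different ages correlated at −0.128 to 0.136. Same-numbered libraries were not paired in the main fit, so its class p-values are unpaired. Pairing by number entered only the fits with replicate blocks and the class differences given by replicate number. The fit was checked on simulated data.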

Additional observations from a re-analysis of the deposited data

How the results depend on the processing

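Leaving out E18.5 BiNuc replicate 1 or giving it a low array weight (0.0494) raised most counts of members called. The counts in this section stand without the share of all genes called, which also moves with the setting. For P7 minus E18.5 in MoNuc cells, 10.7% of all genes rose with all libraries and 17.8% without E18.5 BiNuc replicate 1. The counts therefore describe how calls depend on the processing, and are not read as a result about the members. Over all fits with 1 library left out, the counts ranged from 27 to 79 for adult minus E18.5 in MoNuc and 16 to 81 in BiNuc cells, 7 to 54 and 2 to 24 for adult minus P7, 1 to 41 and 8 to 79 for P7 minus E18.5, 0 to 2 for the class difference at P7 and 0 to 1 for its change from E18.5 to P7. The median class difference at E18.5 ranged from −0.16 to 0.51, its change to P7 from −0.28 to 0.36 and its change to the adult from −0.49 to 0.17. The highest counts, and the signs that differ from the full fit, came without E18.5 BiNuc replicate 1. Among the other libraries, the MoNuc count of adult minus E18.5 was 29 without E18.5 MoNuc replicate 2, 27 without adult MoNuc replicate 2 and 29 without adult MoNuc replicate 3; the count of adult minus P7 in MoNuc cells was 7 and 11 without P7 MoNuc replicates 1 and 2 and 9 and 11 without adult MoNuc replicates 2 and 3; in BiNuc cells it was 3 without any of P7 BiNuc replicate 1 and adult BiNuc replicates 1, 2 and 3, and 2 without P7 BiNuc replicate 2.

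With array weights the counts were 79 and 82 for adult minus E18.5 (MoNuc, BiNuc), 59 and 30 for adult minus P7, 67 and 78 for P7 minus E18.5, 7 for the class difference at P7 and 4 for its change from E18.5, and the medians were −0.11 for the class difference at E18.5, 0.28 for its change to P7 and 0.10 for its change to the adult. With the compared groups fitted alone the counts were 77 and 10, 31 and 32, and 28 and 2 in the same order. With the upper 75% of genes, P7 minus E18.5 in MoNuc cells had 0 calls, since Ndufa4l2 was not among those genes.

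Quantile normalization gave counts of 9 and 16 for adult minus E18.5, 7 and 7 for adult minus P7 and 1 for P7 minus E18.5 in BiNuc cells, and a median of −0.11 for adult minus P7 in MoNuc cells. For adult minus E18.5 in MoNuc cells the medians of complexes II to V were −0.11, −0.14, −0.081 and −0.11. The members listed here as turned below 0 are only those both named and called on the deposited scale. Other members also lay below 0. In adult minus E18.5 of MoNuc cells the listed members were Ndufv1 (−0.018), Ndufv2 (−0.046), Sdha (−0.054), Sdhb (−0.16), Uqcrfs1 (−0.014), Uqcrc1 (−0.14), Uqcrc2 (−0.33), Cox4i1 (−0.12), Atp5a1 (−0.13), Atp5b (−0.11) and Atp5c1 (−0.19). In BiNuc cells, with E18.5 BiNuc replicate 1 included, the median of all members was −0.13, and those of complexes I to V were −0.036, −0.20, −0.28, −0.35 and −0.28. The named and called members that turned below 0 in BiNuc cells were Ndufv1 (−0.003), Ndufv2 (−0.23), Sdhb (−0.27), Sdhc (−0.12), Uqcrfs1 (−0.12), Uqcrc1 (−0.084), Uqcrc2 (−0.32), Atp5a1 (−0.033), Atp5b (−0.26), Atp5c1 (−0.28) and Ndufa10 (−0.008). For adult minus P7 the named and called members that turned were Ndufv1 (−0.12), Ndufs1 (−0.038), Sdha (−0.073), Uqcrc1 (−0.17) and Atp5a1 (−0.22) in MoNuc and Ndufv1 (−0.068) and Sdha (−0.086) in BiNuc cells. Scaling to total counts gave counts of 15 and 14 for adult minus E18.5, 4 and 5 for adult minus P7 and 7 for P7 minus E18.5 in BiNuc cells. In adult minus E18.5 of BiNuc cells, with E18.5 BiNuc replicate 1 included, the medians were then −0.044 for all members and −0.023, −0.15 and −0.14 for complexes III, IV and V. Why the scalings differ was not tested beyond the share of abundant genes given above.

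With a replicate block, which pairs libraries by number, adult minus E18.5 had 41 calls in MoNuc and 21 in BiNuc cells, and blocks within each age called 0 members between the classes. The block ended 3 calls: Ndufv2 for adult minus E18.5 in BiNuc cells (adjusted p = 0.0598), and Ndufaf3 in MoNuc (0.0597) and Ndufv1 in BiNuc cells (0.0592) for adult minus P7. No count of calls moved by over 1.5 times under the block, voom weights, the offset of 2 counts or centring on the median gene. Calls rest on 3 libraries a group, and Ndufa4l2 and Cox6b2 on few counts.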

Other observations

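Of the paired cytochrome oxidase isoforms that the symbol rule leaves out, the Cox6a and Cox8 pairs moved in opposite directions between E18.5 and adult on the deposited scale. The isoforms known from heart and skeletal muscle were higher in the adult: Cox6a2 by 1.22 in MoNuc and 0.90 in BiNuc cells, Cox7a1 by 1.64 and 1.29, and Cox8b by 1.35 and 1.03 (limma, adjusted p between 0.000133 and 0.00897). The BiNuc values of these 3 were 1.40, 1.81 and 1.58 without E18.5 BiNuc replicate 1. Their widely expressed counterparts Cox6a1 and Cox8a fell by 1.84 and 1.25 in MoNuc cells (adjusted p = 1.45e-05 and 0.00118) and by 2.16 and 1.66 in BiNuc cells, or by 1.70 and 1.17 without that library. Cox7a2 had 0.23 (adjusted p = 0.498) and −0.11 (adjusted p = 0.742), and was called higher in BiNuc cells without that library (0.37, adjusted p = 0.0182).

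Atpif1, which encodes the inhibitor of ATP synthase, was measured under its older symbol. It had 4300, 3854 and 4063 normalized counts in E18.5 MoNuc libraries and 2343, 3422 and 2968 in adult MoNuc libraries, groups that did not overlap. In BiNuc libraries it had 9297, 3642 and 3809 at E18.5 and 2435, 2995 and 2583 in the adult. It fell by 0.93 in BiNuc cells (adjusted p = 0.0059), or by 0.48 without E18.5 BiNuc replicate 1 (adjusted p = 0.00775), and had −0.50 in MoNuc cells (adjusted p = 0.115), where it was called without that library (adjusted p = 0.00283).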
